A study of Mus musculus with 12 samples.

Results

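The 43 genes described here encode the machinery that copies DNA and the regulators that take a cell out of G1 and into S phase. They were taken from the tables by symbol. All 43 stood among the 23174 genes of both deposited tables, each on 1 line, and all 43 passed the expression filter of a mean of at least 1 FPKM in both. Levels below are in FPKM, a read density that is corrected for transcript length and for the size of the library. The members were grouped by role into licensing (3 genes), the replicative helicase (11), polymerases (6), clamp and ligase (7), nucleotide supply (4), G1/S regulators (3), chromatin at the fork (5), and fork checkpoint and repair (4).

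Polyadenylated RNA was sequenced from mouse T-ALL, the acute lymphoblastic leukaemia of immature T lineage cells. All samples were of the C57BL/6 background and carried Notch1-deltaE, a form of Notch1 that is active without its ligand. In the ex vivo experiment the leukaemia cells, which had intact Cxcr4 as far as the labels say, were treated with the CXCR4 antagonist AMD3100 (3 samples) or vehicle (3 samples); CXCR4 is the receptor for the niche chemokine CXCL12. In the primary tumours, Cxcr4-/- Notch1-deltaE+ leukaemias (numbered 5, 7 and 8) were set against Cxcr4+/+ Notch1-deltaE+ leukaemias (numbered 1, 2 and 4). The labels place spleen cells on a feeder layer of OP9 stromal cells, arrested with mitomycin C, in medium with IL-7 at 5 ng/ml. They give that culture for every sample, tumours included, and do not say whether the tumours were cultured. Dose and time of AMD3100, the Cre or promoter behind either allele, and animal age are not stated in the labels. Nor do the labels tie the replicates of a group to separate mice or cultures, so the p-values cover the spread among these libraries alone, and part of it may be technical.

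In G1, the origin recognition complex, Cdc6 and Cdt1 load the Mcm2-7 ring onto origins, a step called licensing. Cyclin E with its kinase then helps to switch the loaded rings on, and Cdc45 and the GINS proteins join them to make the moving helicase. Polymerase alpha-primase lays primers, the clamp loader places the PCNA clamp, polymerases delta and epsilon extend the strands, and ligase seals the pieces. Many of these genes are transcribed at the G1/S border by E2F factors, so their messenger RNAs are widely used as a readout of cells entering S phase. In T-ALL, Notch1 and Myc drive such growth and division.

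RefSeq promoter windows on build GRCm38.p6, from 250 bases before to 50 bases after an annotated start, were found for 35 of the 43 members. Those of Cdc6, Mcm6, Dtl and Pcna are shown because they span what the windows hold, from 3 E2F words to none, and what the RNA did under AMD3100. The capitals mark the words TTTCCCGC, TTTGGCGC, TTTCGCGC and TTTGCCGC, searched on both strands, which are common forms of the E2F site. The windows are chr11:98907901-98908200 on the plus strand for Cdc6, chr1:128359656-128359955 on the minus strand for Mcm6, chr1:191575495-191575794 on the minus strand for Dtl and chr2:132253131-132253430 on the minus strand for Pcna. Each is read 5′ to 3′ along the gene.
Cdc6: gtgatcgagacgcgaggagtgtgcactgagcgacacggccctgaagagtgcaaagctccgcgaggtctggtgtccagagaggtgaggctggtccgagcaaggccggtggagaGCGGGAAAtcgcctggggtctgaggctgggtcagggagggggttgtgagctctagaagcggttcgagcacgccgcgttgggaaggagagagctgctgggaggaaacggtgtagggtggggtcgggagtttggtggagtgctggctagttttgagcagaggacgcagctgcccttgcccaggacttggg
Mcm6: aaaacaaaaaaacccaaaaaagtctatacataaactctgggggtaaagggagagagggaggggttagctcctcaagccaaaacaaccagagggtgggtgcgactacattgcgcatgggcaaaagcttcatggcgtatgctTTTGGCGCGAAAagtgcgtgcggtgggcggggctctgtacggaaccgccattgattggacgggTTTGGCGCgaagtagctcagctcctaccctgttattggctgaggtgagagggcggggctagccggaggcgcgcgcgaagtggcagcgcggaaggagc
Dtl: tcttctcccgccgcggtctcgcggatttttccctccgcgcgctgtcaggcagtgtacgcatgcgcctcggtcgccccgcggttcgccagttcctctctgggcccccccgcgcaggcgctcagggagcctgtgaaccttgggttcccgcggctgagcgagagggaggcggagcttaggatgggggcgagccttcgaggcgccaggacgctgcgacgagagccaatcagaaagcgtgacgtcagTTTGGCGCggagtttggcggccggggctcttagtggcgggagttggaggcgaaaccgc
Pcna: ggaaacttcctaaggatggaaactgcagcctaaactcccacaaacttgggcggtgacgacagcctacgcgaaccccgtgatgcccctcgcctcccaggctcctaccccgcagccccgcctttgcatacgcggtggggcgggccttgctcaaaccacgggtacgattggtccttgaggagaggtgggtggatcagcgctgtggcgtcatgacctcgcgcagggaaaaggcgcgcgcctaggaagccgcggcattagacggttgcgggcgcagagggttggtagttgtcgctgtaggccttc

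In Cdc6 the word begins 138 bases before the start, and it reads as TTTCCCGC on the opposite strand. In Mcm6 the words begin 110, 106 and 47 bases before the start, and the first 2 overlap on opposite strands. In Dtl the word begins 8 bases before the start, and the Pcna window holds none. At least 1 such word stood in 16 of the 35 members with a window (45.7%), against 5.27% of the 7537 expressed ex vivo genes with a window and 2.61% of all 27025 genes with one. The CCAAT word was in 57.1% of the 35 members and in 43.7% of the expressed genes, and the cell cycle word TTTGAA, taken from the mitotic promoter element CHR, was in 11.4% and 13.9%. A match describes these letters only and does not show binding. Exo1, Prim2, Gins1, Gins2, Mcm4, Ccne2, Pole and Rfc2 had no window.

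RNA for this machinery was lower with AMD3100 in each of the 8 roles, and most members passed the test once same-numbered samples were compared as pairs. The mean FPKM of the 43 genes differed by a median of -27.9%, with a range from -47.9% for Ccne1 to 0.411% for Pole. Summed over the members, AMD3100 cells held 2869 ± 102 FPKM and vehicle cells 3987 ± 159 FPKM (SD, n = 3 each). That was 0.631% ± 0.0287 of all FPKM with AMD3100 and 0.861% ± 0.0022 with vehicle, and the groups did not overlap. The median log2(FPKM + 1) difference was -0.46 over the members and 0.0022 over the 10245 genes tested.

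How many members were called depended on the pairing. In limma without pairs and with Benjamini-Hochberg adjustment over all 10245 genes, 0 of 43 passed an adjusted p under 0.05. The background was low as well, with 0.0781% of genes called lower and 0.0488% higher. At an unadjusted p under 0.05, 33 of 43 members (76.7%) were lower with AMD3100, against 12% of all genes, and 0 were higher, against 9.56% of all genes. Same-numbered samples deviated together, and in the paired limma fit 34 of 43 (79.1%) were called lower, against 9.92% of all genes. None was called higher in that fit, against 9.96% of all genes. In 35 of 43 members (81.4%) all 3 AMD3100 values lay under all 3 vehicle values, as they did in 15.8% of all genes. No member had its AMD3100 values all above its vehicle values, against 13.1% of all genes. A difference below 0 was seen in 41 of 43 members (95.3%), against 49.7% of all genes. Within pairs, AMD3100 was lower for 40, 42 and 43 of the 43 members in pairs 1, 2 and 3, with medians of -0.44, -0.34 and -0.58, and 40 members were lower in 3 of 3 pairs. The paired count was 0 without pair 1, 0 without pair 2 and 22 without pair 3, where 0.0196%, 0.0395% and 6.08% of all genes were called lower, each fit then resting on 2 pairs.

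**Figure D1:**
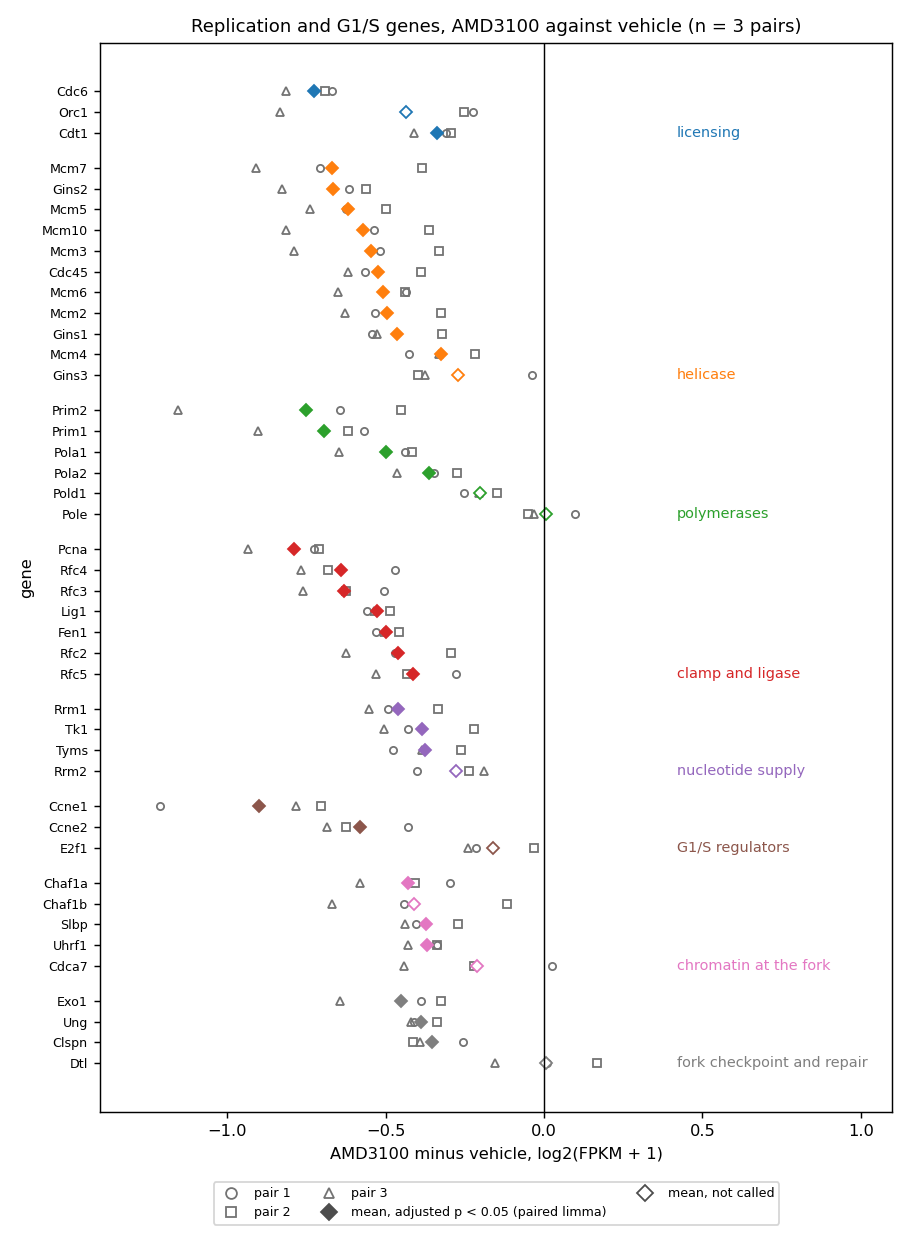
Difference between AMD3100 and vehicle in log2(FPKM + 1) for the 43 genes, by role; open grey symbols are the 3 same-numbered pairs and diamonds their mean, filled where the paired limma fit gave an adjusted p under 0.05. Among the diamonds 34 are filled, all left of 0, and 40 genes have all 3 pairs left of 0.

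Licensing genes were lower with AMD3100, and 2 of 3 passed the paired test, with a median log2 difference of -0.44. Over all genes 9.92% were called lower in that test, the share to set beside the count of each role below. Cdc6, the ATPase that recruits the helicase ring to origins, had 14.1, 15.2 and 15.7 FPKM with AMD3100, against 23.0, 25.1 and 28.3 FPKM with vehicle (samples 1, 2 and 3, the order kept below). The groups were well apart and each pair differed the same way. The log2 difference for Cdc6 was -0.73, with an adjusted p of 0.0544 in limma and 0.0191 in paired limma. Cdt1, its partner in loading the ring, had 55.9, 55.4 and 47.8 FPKM with AMD3100, against 69.5, 68.1 and 63.9 FPKM with vehicle. For Cdt1 the difference was -0.34, with a paired limma adjusted p of 0.0302 and, with a correction for transcript length, 0.0513. Orc1, the largest origin recognition subunit, averaged 8.47 ± 2.20 FPKM with AMD3100 and 11.7 ± 1.62 FPKM with vehicle. Its groups overlapped and its paired adjusted p was 0.1004.

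The helicase group moved as a block, with 10 of 11 genes called lower in the paired fit, against 9.92% of all genes. All 11 were lower without overlap between groups, against 15.8% of all genes. The summed level of the helicase group was 1002 ± 55.7 FPKM with AMD3100 and 1451 ± 85.6 FPKM with vehicle (SD, n = 3 each). Mcm2, a ring subunit, had 159.6, 178 and 151 FPKM with AMD3100, against 231, 224 and 234 FPKM with vehicle. The lowest vehicle value lay above the highest AMD3100 value by more than the whole vehicle range. Its log2 difference was -0.50, with an adjusted p of 0.0617 in limma and 0.0247 in paired limma. Mcm5, another ring subunit, had 131, 125 and 136 FPKM with AMD3100, against 202, 176 and 227 FPKM with vehicle, a difference of -0.62 with a paired limma adjusted p of 0.0197. All 6 subunits of the ring were called, from -0.32 for Mcm4 to -0.67 for Mcm7. Mcm6, whose promoter window held 3 E2F words, had 208, 179 and 167 FPKM with AMD3100, against 281, 243 and 263 FPKM with vehicle, and a difference of -0.51 (paired limma adjusted p = 0.0216).

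The factors that turn the ring into a moving helicase followed. Cdc45 had 48.1, 46.5 and 50.5 FPKM with AMD3100, against 71.7, 61.2 and 78.1 FPKM with vehicle, a log2 difference of -0.52 with a paired limma adjusted p of 0.0199. Gins2, a GINS subunit, had 47.9, 44.2 and 26.8 FPKM with AMD3100, against 73.9, 65.6 and 48.3 FPKM with vehicle. Sample 3 was lowest in both groups for Gins2, and within pairs the gap was similar, so the difference of -0.67 had an adjusted p of 0.220 in limma and 0.0197 in paired limma. Mcm10, which helps the assembled helicase to start, differed by -0.57 and Gins1 by -0.46, and both were called in pairs. The Gins1 call was lost with the correction for transcript length, where its difference was -0.27 with an adjusted p of 0.0720 in paired limma. Gins3 averaged 11.2 ± 1.11 FPKM with AMD3100 and 13.8 ± 1.67 FPKM with vehicle, and its paired adjusted p was 0.134.

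Among the polymerases, 4 of 6 genes were called in the paired fit, and these were the subunits of polymerase alpha-primase, Pola1, Pola2, Prim1 and Prim2. Prim1, the catalytic primase subunit, had 72.2, 72.2 and 61.8 FPKM with AMD3100, against 108, 111 and 116 FPKM with vehicle. Its groups were far apart, with a difference of -0.70 and an adjusted p of 0.0544 in limma and 0.0197 in paired limma. Pola1, the catalytic subunit of polymerase alpha, had 33.1, 34.5 and 26.5 FPKM with AMD3100, against 45.2, 46.3 and 42 FPKM with vehicle, a difference of -0.50 with a paired limma adjusted p of 0.0228. Pold1, the catalytic subunit of polymerase delta, had lower values in each AMD3100 sample but missed the paired threshold, with a difference of -0.20 and an adjusted p of 0.0802. Pole, the catalytic subunit of polymerase epsilon, had 32.5, 29.9 and 33.1 FPKM with AMD3100, against 30.3, 31.0 and 33.9 FPKM with vehicle. The Pole groups overlapped, and the 95% interval of its log2 difference in limma without pairs ran from -0.21 to 0.22. Its difference with a correction for transcript length was -0.18.

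The clamp and ligase group was the only subgroup of the 8 in which each gene was called in pairs (7 of 7), and its sum showed the largest difference, at -34.5%. Pcna, the sliding clamp that tethers polymerases to DNA, had 129, 144 and 125 FPKM with AMD3100, against 215, 236 and 240.1 FPKM with vehicle. The highest AMD3100 value was well under the lowest vehicle value. The log2 difference of Pcna was -0.79, with an adjusted p of 0.0544 in limma and 0.0191 in paired limma. Lig1, the ligase that seals lagging strand pieces, was nearly constant within groups, with 91.0, 91.3 and 89.7 FPKM with AMD3100, against 134, 128 and 130.4 FPKM with vehicle. For Lig1 the difference was -0.53, with a paired limma adjusted p of 0.0197. Fen1, the nuclease that trims lagging strand flaps, differed by -0.50. The clamp loader subunits Rfc2, Rfc3, Rfc4 and Rfc5 ranged from -0.41 for Rfc5 to -0.64 for Rfc4.

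**Figure D2:**
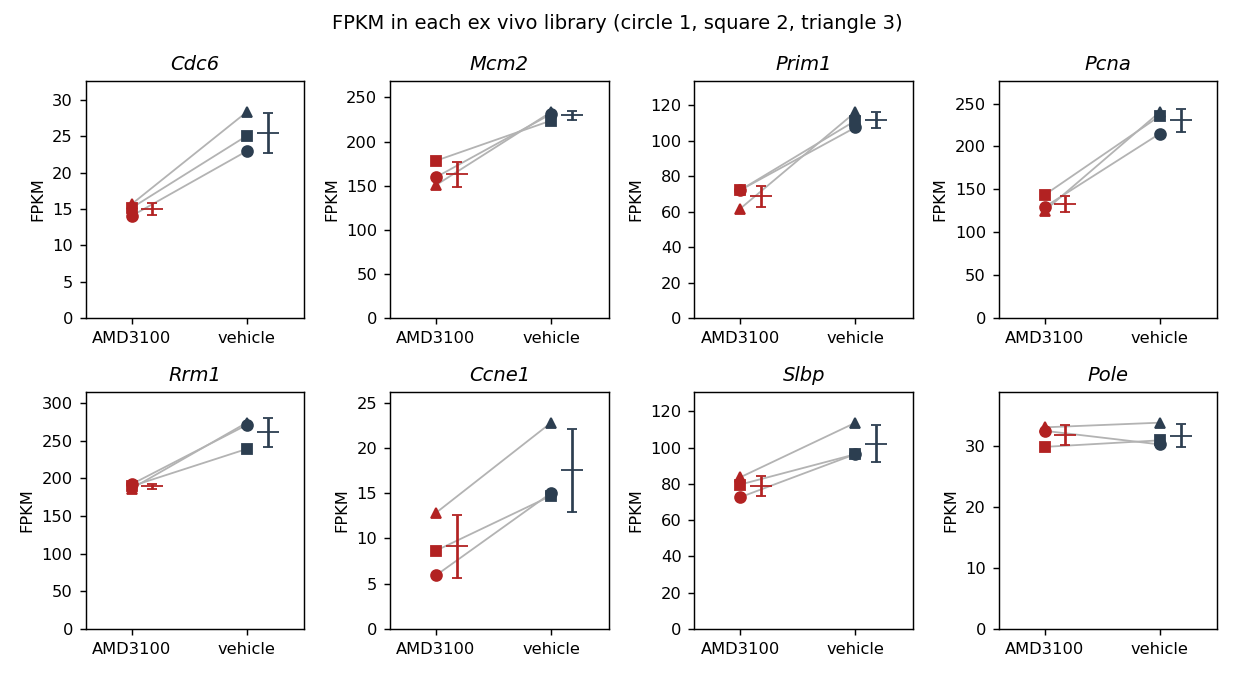
FPKM of 8 genes in each ex vivo library, with AMD3100 left of vehicle; symbols mark the sample number, grey lines join same-numbered samples, and the bars beside them give the mean and SD (n = 3). Cdc6, Mcm2, Prim1, Pcna, Rrm1, Ccne1 and Slbp are lower with AMD3100 without overlap, and the Pole groups overlap.

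Genes for nucleotide supply had a median difference of -0.38, and 3 of 4 passed the paired test. Rrm1, the large subunit of ribonucleotide reductase, had 192, 189.6 and 186 FPKM with AMD3100, against 271, 239 and 274 FPKM with vehicle, a difference of -0.46 with a paired limma adjusted p of 0.0238. The groups did not overlap. Its partner Rrm2, the subunit whose level follows S phase, had 188, 213 and 177 FPKM with AMD3100, against 248, 251 and 201 FPKM with vehicle. For Rrm2 the vehicle sample 3 lay below the AMD3100 sample 2, and the difference of -0.28 had a paired limma adjusted p of 0.0580. Tyms, which makes thymidylate, had 23.6, 21.9 and 22.6 FPKM with AMD3100, against 33.3, 26.4 and 29.8 FPKM with vehicle, and a difference of -0.37 (paired limma adjusted p = 0.0343). Tk1, which salvages thymidine, overlapped between groups but was lower in 3 of 3 pairs, with a paired limma adjusted p of 0.0372 and, with the correction for transcript length, 0.0658.

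Of the G1/S regulators, both cyclin E genes were called in pairs and E2f1 was not. Ccne1, cyclin E1, had 5.91, 8.64 and 12.8 FPKM with AMD3100, against 15, 14.7 and 22.8 FPKM with vehicle. Sample 3 was highest in both groups, and the difference of -0.90 was the largest of the 43, with an adjusted p of 0.160 in limma and 0.0199 in paired limma. Ccne2, cyclin E2, had 20.4, 15.2 and 20.1 FPKM with AMD3100, against 27.8, 24.0 and 32.9 FPKM with vehicle, a difference of -0.58 with a paired limma adjusted p of 0.0201. E2f1, an activator of this gene program, had 22.2, 24.8 and 22.9 FPKM with AMD3100, against 25.9, 25.4 and 27.2 FPKM with vehicle. These E2f1 values did not overlap, but the difference of -0.16 had a paired limma adjusted p of 0.196.

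At the fork, 3 of 5 chromatin genes and 3 of 4 checkpoint and repair genes were called. Uhrf1, which helps to copy DNA methylation onto new strands, had 117, 119.6 and 125 FPKM with AMD3100, against 148, 151 and 169 FPKM with vehicle (difference -0.37, paired limma adjusted p = 0.0251). Slbp, the histone messenger RNA binding protein, had 72.7, 79.7 and 83.7 FPKM with AMD3100, against 96.5, 96.4 and 114 FPKM with vehicle (difference -0.37, paired limma adjusted p = 0.0279). Both genes kept their groups apart. Chaf1a, of the histone chaperone CAF-1, was called at -0.43, whereas its partner Chaf1b differed by -0.41 with a paired adjusted p of 0.0697 in limma. Cdca7, a chromatin remodelling cofactor and a Myc target, had 149, 128 and 185 FPKM with AMD3100, against 147, 149 and 252 FPKM with vehicle, and was not lower in pair 1. Ung, which removes uracil from DNA, had 28.8, 34.8 and 24.2 FPKM with AMD3100, against 38.5, 44.2 and 32.7 FPKM with vehicle. Its groups overlapped, yet each pair differed by a similar amount, and the difference of -0.39 had an adjusted p of 0.257 in limma and 0.0251 in paired limma.

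Clspn, a checkpoint adaptor that travels with the fork, had 28.6, 27.0 and 33.5 FPKM with AMD3100, against 34.3, 36.3 and 44.3 FPKM with vehicle (difference -0.35, paired limma adjusted p = 0.0326). Exo1, a nuclease of mismatch repair, differed by -0.45 and was called in pairs. Dtl, which marks Cdt1 for destruction in S phase, had 40.4, 45.2 and 44.2 FPKM with AMD3100, against 40.1, 40.2 and 49.4 FPKM with vehicle. Its groups overlapped, and the 95% interval of its difference in limma without pairs ran from -0.26 to 0.28. Its promoter window is the one shown above with a word 8 bases before the start. Of the members with an E2F word, 11 of 16 were called lower in pairs, with a median of -0.47. Of those with a window and none, 16 of 19 were called, with a median of -0.43, and 7 of 8 without a window were. Over all genes 9.92% were called lower in pairs, and that share was not split by E2F word.

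A second list of 57 replication genes, outside the 43, showed a smaller and less uniform difference. In the paired fit 21 of the 56 that passed the filter were called lower and 2 higher, against 9.92% and 9.96% of all genes. Their median was -0.28, and E2f7 fell under the filter. Among those with the smallest paired p, Pole3, a small subunit of polymerase epsilon that also serves in chromatin complexes, had 64.4, 78.7 and 74.9 FPKM with AMD3100, against 123, 142 and 139 FPKM with vehicle, a difference of -0.88 (paired limma adjusted p = 0.0169). The Pole3 groups did not overlap, whereas those of Pole did. Pole2, another epsilon subunit, averaged 17.8 ± 2.07 FPKM with AMD3100 and 25.7 ± 3.32 FPKM with vehicle (SD, n = 3 each) and was also called lower in pairs. Dscc1, of an alternative clamp loader, had 11.7, 10.4 and 11.6 FPKM with AMD3100, against 20.4, 21.0 and 19.5 FPKM with vehicle (difference -0.80). Orc6, of the origin recognition complex, had 42.8, 43.4 and 43.7 FPKM with AMD3100, against 61.3, 59.9 and 62.1 FPKM with vehicle (difference -0.49, paired limma adjusted p = 0.0197). The 2 called higher, named after their values were seen, were Rb1, the retinoblastoma protein that restrains E2F (0.51), and Ticrr, a factor of helicase activation (0.46). Of 8 mitotic markers, 3 were called lower in the paired fit (Aurkb, Birc5 and Cdc20), against 9.92% of all genes. The median of the 8 was -0.08.

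Other measures were read beside the treatment. Malat1, Xist, Kcnq1ot1, the T cell and macrophage marker sums, and relative depth (given below) did not overlap between groups. Their part in the result was not tested. The nuclear RNA Malat1 had 527, 579.8 and 920.5 FPKM with AMD3100, against 178, 214 and 334 FPKM with vehicle. Xist, another nuclear RNA, had 129.6, 160.1 and 149 FPKM with AMD3100, against 45.0, 55.1 and 76.2 FPKM with vehicle. Kcnq1ot1, also nuclear, had 4.75, 5.92 and 5.36 FPKM with AMD3100, against 1.87, 2.10 and 2.38 FPKM with vehicle. The 11 T cell markers summed to 4993 to 5261 FPKM with AMD3100 and to 5496 to 5735 FPKM with vehicle. Single markers differed in direction. Cd3g had 834, 828 and 496 FPKM with AMD3100, against 1160, 1105 and 694 FPKM with vehicle. Cd3e had 819, 1011 and 721 FPKM with AMD3100, against 914, 854 and 462 FPKM with vehicle. Stromal markers, read because of the OP9 feeder, summed to 21.9 to 200.01 FPKM with AMD3100 and to 10.1 to 183 FPKM with vehicle. Most of the sum in samples 1 and 2 was Pdgfrb, at 144 and 186 FPKM with AMD3100, against 136 and 160 FPKM with vehicle. Sample 3 had the lowest sum and the lowest Pdgfrb in both groups. Cxcl12 reached at most 15.9 FPKM, and Dcn and Lum were at 0 FPKM in each ex vivo library. Macrophage markers summed to 2.48 to 2.92 FPKM with AMD3100 and to 1.59 to 1.89 FPKM with vehicle. Most of that was Cd68, and Csf1r, C1qa, C1qb and C1qc were at 0 FPKM in each ex vivo library. Neutrophil markers summed to 0 in each AMD3100 library and to 0 to 0.429 FPKM with vehicle. Erythroid markers other than haemoglobin summed to 98 to 139.6 FPKM with AMD3100 and to 103 to 144 FPKM with vehicle, most of it Tfrc, the transferrin receptor, which dividing cells also use. Relative depth, read from the steps between low values, was 1.06, 1.25 and 1.21 with AMD3100, against 1, 0.908 and 0.758 with vehicle, in units of the first vehicle library. Gapdh, which every cell uses, was listed near 0 throughout, so a low value in these tables can be a failed estimate. All 43 members were above 0 in every library. In bulk RNA, fewer cells in S phase and less of each messenger per cell cannot be told apart.

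In the primary tumours the same 43 genes showed no called difference by genotype. Limma called 0 of 43, with 0.0186% of the 10741 genes tested called lower and 0.0186% higher. At an unadjusted p under 0.05, 1 member was lower in knockout tumours (2.33%, against 2.02% of all genes), and 0 were higher, against 2.26%. A difference below 0 was seen in 42 of 43 members (97.7%, against 52.3% of all genes), with a median of -0.51, against -0.03 over all genes. That median rested on single tumours. It was -0.11 without knockout 7, -0.98 without knockout 5 and -1.21 without wild type 1, and the count at an unadjusted p under 0.05 became 10 without knockout 5 (against 3.04% of all genes) and 7 without wild type 1 (against 2.73%). As a check of the labels, Cxcr4 had 23.2, 78.9 and 21.9 FPKM in knockout tumours 5, 7 and 8, against 241, 155 and 206 FPKM in wild-type tumours 1, 2 and 4, and all knockout values were lower. Xist, which is transcribed in female cells, had 0.829, 2.80 and 2.69 FPKM in the knockout tumours, against 143, 96.4 and 147 FPKM in the wild-type tumours, so the sex of the mice and the genotype cannot be told apart.

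The tumours differed far more among themselves than by genotype. Knockout 5, wild type 2 and wild type 4 held the 3 highest values for 40 of 43 members (93.0%), an order seen in 16.5% of all genes. The exceptions were Gins2, Ung and Cdca7. The members summed to 3898, 999.5 and 1336 FPKM in knockout tumours 5, 7 and 8, against 985, 3692 and 4409 FPKM in wild-type tumours 1, 2 and 4. Relative to the mean of the 6 tumours, the median member lay at 0.82, -1.04 and -0.50 on the log2 scale in the knockout tumours and at -0.996, 0.84 and 1.01 in the wild-type tumours. From the lowest to the highest tumour, levels spanned 2.15-fold for Rfc2 and 5.29-fold for the median member. The span was 177-fold for Rfc3, and it rested on the low value of knockout 8.

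**Figure D3:**
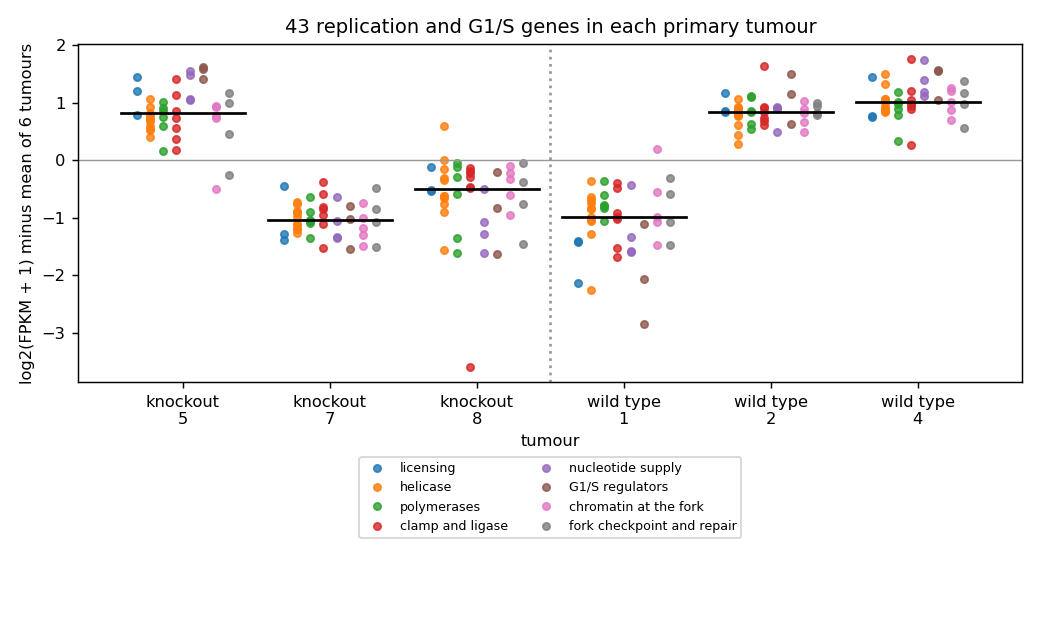
Level of each of the 43 genes in each tumour as log2(FPKM + 1) minus the mean of the 6 tumours, coloured by role; black lines are medians, and the dotted line parts knockout from wild type. Medians of 0.82, 0.84 and 1.01 mark knockout 5, wild type 2 and wild type 4, and the other tumours lie at -0.50 to -1.04.

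The same split ran through each role. Among licensing genes, Cdc6 had 61.5, 7.75 and 14.9 FPKM in the knockout tumours, against 4.25, 50.9 and 61.8 FPKM in the wild-type tumours, and Cdt1 had 93.1, 38.6 and 36.7 FPKM, against 19.3, 97.8 and 90.1 FPKM. Of the helicase, Mcm2 had 209, 64.8 and 71.8 FPKM in the knockout tumours, against 58.5, 232 and 257 FPKM in the wild-type tumours. Its log2 difference of -0.61 had a 95% interval from -2.22 to 1.00. Mcm5 had 154, 43.9 and 77.1 FPKM in the knockout tumours, against 46.0, 183 and 178 FPKM in the wild-type tumours, and Cdc45 had 34.5, 6.34 and 14.1 FPKM, against 2.54, 34.2 and 46.7 FPKM. Gins2 departed from the split, with 30.4, 8.81 and 31.4 FPKM in the knockout tumours, against 7.89, 28.1 and 37.8 FPKM in the wild-type tumours, so that knockout 8 stood with the high ones.

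Polymerase genes were highest in the same 3 tumours. Prim1 had 65.4, 12.9 and 22.4 FPKM in the knockout tumours, against 19.2, 62.7 and 68.0 FPKM in the wild-type tumours, and Pola1 had 32.8, 7.92 and 14.2 FPKM, against 7.96, 26.0 and 36.8 FPKM. Pcna had 151, 49.8 and 64.1 FPKM in the knockout tumours, against 43.7, 145 and 174 FPKM in the wild-type tumours, and its difference of -0.39 had a 95% interval from -1.86 to 1.08. Pcna was therefore high in 1 knockout and 2 wild-type tumours. Lig1 had 113, 20.9 and 44.9 FPKM in the knockout tumours, against 32.2, 112 and 145 FPKM in the wild-type tumours. Rfc3 gave the largest difference, -1.99, and it rested on knockout 8, where the gene had 0.291 FPKM, against 40.5 and 7.90 FPKM in the other knockout tumours and 10.8, 47.5 and 51.6 FPKM in the wild-type tumours. Knockout 8 also had the most genes at 0, 13231, against 10423 to 11433 in the other tumours. Whether its Rfc3 value was a failed estimate was not tested.

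For nucleotide supply, Rrm2 had the highest mean of the 43 in the tumours, with 607, 80 and 83.7 FPKM in the knockout tumours, against 67.0, 392 and 691 FPKM in the wild-type tumours. Its difference was -0.72, with a 95% interval from -3.21 to 1.78. Rrm1 had 239.6, 54.9 and 81.8 FPKM in the knockout tumours, against 38.1, 219 and 267 FPKM in the wild-type tumours, and Tyms had 29.7, 8.40 and 3.77 FPKM, against 9.88, 19.7 and 30.9 FPKM. The regulators split the same way. Ccne1 had 102, 21.4 and 21.0 FPKM in the knockout tumours, against 4.42, 109 and 114 FPKM in the wild-type tumours. E2f1 had 36.1, 3.26 and 3.00 FPKM in the knockout tumours, against 4.72, 26.6 and 35.2 FPKM in the wild-type tumours. Ccne2 was the one member with a difference above 0, at 0.27, with 122, 18.7 and 33.6 FPKM in the knockout tumours, against 8.47, 60.9 and 81.0 FPKM in the wild-type tumours. Without knockout 5 the Ccne2 difference was -0.48.

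Among genes at the fork, Uhrf1 had 111, 19.6 and 29.0 FPKM in the knockout tumours, against 38.5, 100.4 and 133 FPKM in the wild-type tumours. Slbp had 206, 64.3 and 71.1 FPKM in the knockout tumours, against 51.0, 153 and 219.7 FPKM in the wild-type tumours. Clspn had 50.6, 6.99 and 16.6 FPKM in the knockout tumours, against 7.21, 39.3 and 58.1 FPKM in the wild-type tumours. Each had its 3 highest values in knockout 5, wild type 2 and wild type 4, whereas Ung had 13.7, 11.6 and 16.1 FPKM in the knockout tumours, against 10.7, 29.3 and 25 FPKM in the wild-type tumours. Cdca7 was the 1 member whose groups did not overlap (2.33% of members, against 5.2% of all genes lower without overlap). None was higher without overlap, against 4.01% of all genes. It had 19.3, 13.3 and 23.7 FPKM in the knockout tumours, against 31.7, 44.2 and 51.5 FPKM in the wild-type tumours. All 3 knockout values of Cdca7 were low, including that of knockout 5, in which most members were high. The log2 difference was -1.14, with an unadjusted p of 0.0104 and an adjusted p of 0.986 in limma, and Cdca7 was not called with AMD3100.

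Across tumours, most erythroid markers were high where the members were high, and T cell markers were low there. The part of either in the result was not tested. The 7 erythroid markers other than haemoglobin summed to 7850, 736 and 1631 FPKM in knockout tumours 5, 7 and 8, against 163, 2109 and 7713 FPKM in wild-type tumours 1, 2 and 4. The 11 T cell markers summed to 2018, 4338 and 3469 FPKM in the knockout tumours, against 5560, 1498 and 1919 FPKM in the wild-type tumours. Of these 11, 8 had their 3 highest values in knockout 7, knockout 8 and wild type 1, the tumours that were low for most replication genes. That order was seen in 18.7% of all genes. The T cell markers include defining genes such as Cd3e and Lck, which were well above 0 in all tumours. Neutrophil markers summed to 68.5, 345 and 171 FPKM in the knockout tumours, against 215, 3264 and 5.52 FPKM in the wild-type tumours. All 8 mitotic markers had their 3 highest values in knockout 5, wild type 2 and wild type 4. So did 8 of 10 erythroid entries, haemoglobin included, against 16.5% of all genes.

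**Figure D4:**
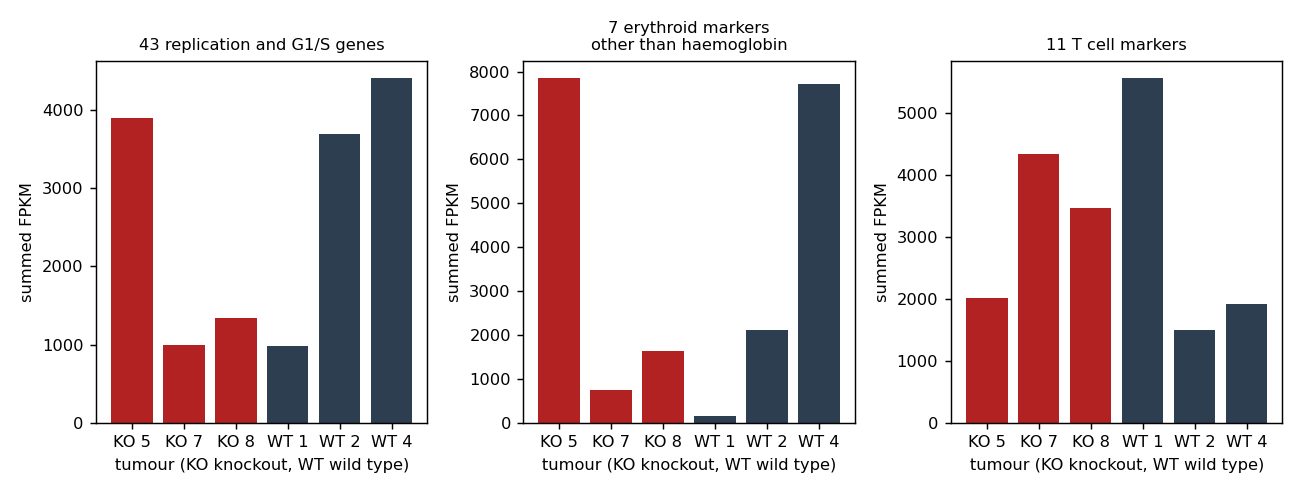
Summed FPKM in each tumour of the 43 replication and G1/S genes, of 7 erythroid markers other than haemoglobin, and of 11 T cell markers, with knockout left of wild type (1 bar per tumour). The replication genes reach 3692 to 4409 in knockout 5, wild type 2 and wild type 4, where T cell markers are at 1498 to 2018.

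Of the 57 other replication genes, all were tested in the tumours and 0 were called, with a median of -0.34. In 41 of the 57 (71.9%, against 16.5% of all genes), knockout 5, wild type 2 and wild type 4 were highest. The 4 with the smallest p all had lower means in knockout tumours. Dctpp1, which clears damaged nucleotides, had 14.4, 19.8 and 20.7 FPKM in the knockout tumours, against 22.0, 38.3 and 56.5 FPKM in the wild-type tumours, without overlap (difference -0.97, unadjusted p = 0.0427 and adjusted p = 0.986 in limma). The clamp-associated factor listed as 2810417H13Rik differed by -1.20, Tfdp1, the partner of E2F proteins, by -0.80, and Rfc1, the large clamp loader subunit, by -0.58, with overlap in each. Whether the AMD3100 and knockout differences of any gene differ from each other was not tested, since the tables were made separately.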

How the data were processed

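The values were FPKM as the authors deposited them, in 1 table for the 6 ex vivo samples and 1 for the 6 tumours. Per the labels' protocols, libraries were strand-specific (dUTP method) and read as 50-base single ends. Per the submitters' processing notes, CASAVA and TopHat were used with build mm9, and the program that made the FPKM is not given in the sources used here. Columns were matched to samples by name. FPKM are not counts and read totals are unknown, so values were tested as log2(FPKM + 1), which understates changes of low genes.

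Genes averaging 1 FPKM or more across a table were fitted with limma 3.58.1 in R 4.3.3 (eBayes with a mean trend, two-sided), each table alone, with Benjamini-Hochberg adjustment over 10245 genes ex vivo and 10741 in the tumours and calls at adjusted p under 0.05. The main design had no pairs. Same-numbered ex vivo samples correlated at 0.467, 0.579 and 0.619 in their deviations from group means, above the limit of 0.1. Differently numbered ones correlated at -0.473 to 0.0455. Deviations cancel out within each group, so these low values follow in part from the high same-numbered ones. Because of the same-numbered correlations the paired fit is given beside the main one, although the labels do not say what a number marks. The tumour genotypes share no numbers. With 3 against 3 an exact permutation test cannot go below 0.1, so none was run. The text names the 2 members of each role with the smallest paired p and Mcm2, Cdc45, Pcna, Rrm2, Ccne1, E2f1 and Slbp with values in every sample, and 4 other replication genes per comparison, of which 1 is not reported here. Further members were added with their values known. The members and lists were chosen with earlier results of these data known.

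On simulated data the fits recovered 69% of genes changed by 1 on the log2 scale and 90% of those changed by 2 ex vivo (66% and 94% in pairs), and 0% of either in the tumours (100 changed genes per size). The largest ex vivo difference of a member was -0.90 (Ccne1), so recovery at the members' sizes was not simulated. Without pairs, the simulated libraries varied independently, whereas the same-numbered ex vivo libraries deviated together. Alternatives were other pseudocounts, filters, scalings and variance models, a looser threshold, a transcript length correction, and leaving out each sample or pair. Promoter windows came from RefSeq on GRCm38.p6 and were matched by symbol.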

Additional observations from a re-analysis of the deposited data

How the results depend on the processing

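The fits disagree most on how many ex vivo genes pass. Without pairs the 43 genes gave 0 calls, 7 at a mean of at least 5 FPKM and 23 at an adjusted p under 0.10. These calls were all lower with AMD3100, where 0.0781%, 1.57% and 4.91% of all genes were called lower. With the replicate block the count was 34, also 34 with median-of-ratios scaling, 31 with quantile normalisation, 31 with the length correction and 22 without the samples numbered 3. In that order 9.92%, 9.76%, 8.96%, 6.05% and 6.08% of all genes were called lower. The count of members was 0 without the samples numbered 1 or 2, against 0.0196% and 0.0395% of all genes called lower. Leaving out the samples of any 1 number left the fit with 2 pairs. Over all genes the count of 13 became 188 at 5 FPKM, 8 with no filter, 3 with quantile normalisation, 1 without the variance trend, 847 at an adjusted p under 0.10, and 3 to 5 leaving out 1 library. With the replicate block it was 2036, or 2033 with median-of-ratios scaling, 1914 with quantile normalisation, 1273 with the length correction, 9 when samples numbered 1 were left out, 7 when those numbered 2 were and 1207 when those numbered 3 were. In the tumours the count of 4 became 0 with no filter and 0 to 4 leaving out 1 library. The filters, the length correction and most fits that left out samples changed the genes tested, and the length correction also changed the values. What caused the changes in these counts was not tested.

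Of the log2 differences of named genes, 13 of 1078 alternative values ex vivo and 2 of 150 in the tumours changed sign. Ex vivo these were Pole, with -0.0251 to 0.0529 leaving out 1 library, -0.18 with the replicate block and length correction and -0.0407 with the block when samples numbered 1 were left out. Dtl had -0.0418 to 0.104 leaving out 1 library, -0.0531 with the replicate block and length correction and -0.0728 with the block when samples numbered 2 were left out. Cdca7 had -0.35 to 0.0411 leaving out 1 library. In the tumours Ccne2 had -0.70 (without wild type 1) to 0.86 (without wild type 4). The tumour libraries varied too much for a log2 change of 2 to be called in simulated data, so the 0 calls there do not show that the genotypes are alike.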
